A study of Mus musculus with 4 samples.

Results

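The nuclear-encoded subunits of the mitochondrial respiratory chain were compared in liver RNA of mice after hepatectomy, between livers treated with adipose-derived stem cells (ADSC) carried in a fibrin gel and livers treated with the gel alone. The set was defined by gene symbol, with earlier results of these data known. It took every row of the deposited table whose name starts with Nduf followed by a, b, c, s or v and a number. Also taken was every name starting with Uqcr, with Cox and a number between 4 and 8, or with Atp5. Sdha, Sdhb, Sdhc, Sdhd and Cyc1 completed the set. It held 85 of 24421 gene rows: 37 of complex I, 4 of complex II, 9 of complex III, 18 of complex IV and 17 of complex V. The study has 4 liver libraries. The gelADSC group has 2 libraries from hepatectomized mice given ADSC within fibrin gel, and the control group has 2 libraries from hepatectomized mice given fibrin gel without cells. Hepatectomy and the gel are therefore shared by both groups, and no liver without surgery or without gel was analysed here. Strain, age and sex of the mice, the interval since surgery, the cell dose and the ADSC source are not stated in the labels. Nothing there says that the libraries of a group came from separate animals, so the p-values measure only the spread between these libraries, which may be technical.

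The respiratory chain sits in the inner mitochondrial membrane. Complex I takes electrons from NADH and complex II takes them from succinate, both pass them to ubiquinone, complex III passes them on to cytochrome c, and complex IV passes them to oxygen. Complexes I, III and IV pump protons, and complex V, the ATP synthase, uses the returning protons to make ATP. Most subunits are encoded in the nucleus and imported, while a small core is encoded in mitochondrial DNA. Hepatocytes are rich in mitochondria and use this ATP for glucose production, urea synthesis and lipid handling, and a liver regrowing after hepatectomy also needs it for biosynthesis.

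Promoters of respiratory chain genes are known for sites of NRF1, of the ETS factor GABPA, of the estrogen-related receptors (ERR) and of YY1. In the RefSeq table for mouse build GRCm38.p6, 69 of the 85 genes were matched to 75 promoters, each running from 250 bases before to 50 bases after the gene's start. The letters CGCANGCGC, searched on both strands for NRF1, were present in 26 of the 75 promoters (34.7%), against 6.31% of all 32851 promoters of the same length. The ETS letters CCGGAAG were present in 16 promoters (21.3%, against 8.86%), the YY1 letters AAGATGGCG in 9 (12%, against 1.4%) and the ERR letters TCAAGGTCA in 2 (2.67%, against 0.423%). No match of one motif overlapped a match of another in these promoters. At least one of the 4 motifs was found in 41 promoters (54.7%, against 15.3% of all promoters). Among the 21263 promoters of protein-coding genes the shares were 8.61% for NRF1, 11.6% for ETS, 1.83% for YY1 and 0.334% for ERR. There 19.9% held at least 1 of the 4 motifs. By complex, NRF1 letters were found in 10 of 34 promoters of complex I, 2 of 3 of complex II, 3 of 5 of complex III, 1 of 13 of complex IV and 10 of 20 of complex V. These are matches of letters, not measured binding. The 250 bases before the start are printed for 4 genes that the results below return to: Ndufs7, which carried the lowest log2 change of the set, Ndufa8 and Cox6a1, which hold NRF1 letters more than once, and Atp5g3, which holds the ERR letters. Capitals mark every match, the first run of Cox6a1 being overlapping NRF1 matches, and sequences are from RefSeq, 5′ to 3′ on the strand of the gene. The Ndufs7 sequence (chr10:80249199-80249448, plus strand) holds none of the 4 motifs, and its YY1 match lies after the start. The others are Ndufa8 (chr2:36049339-36049588, minus strand), Cox6a1 (chr5:115348959-115349208, minus strand, NRF1 and then ETS letters) and Atp5g3 (chr2:73911327-73911576, minus strand), whose single NRF1 match is not within the bases printed.
Ndufs7: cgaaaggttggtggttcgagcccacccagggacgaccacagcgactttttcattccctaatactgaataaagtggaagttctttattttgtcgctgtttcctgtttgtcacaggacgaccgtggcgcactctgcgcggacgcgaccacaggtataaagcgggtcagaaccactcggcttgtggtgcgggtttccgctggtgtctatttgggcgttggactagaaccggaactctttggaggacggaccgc
Ndufa8: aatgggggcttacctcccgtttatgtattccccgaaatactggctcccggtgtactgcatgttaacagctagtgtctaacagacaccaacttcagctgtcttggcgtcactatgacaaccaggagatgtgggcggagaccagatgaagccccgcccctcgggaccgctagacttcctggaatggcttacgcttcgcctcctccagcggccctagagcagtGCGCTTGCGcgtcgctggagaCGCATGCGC
Cox6a1: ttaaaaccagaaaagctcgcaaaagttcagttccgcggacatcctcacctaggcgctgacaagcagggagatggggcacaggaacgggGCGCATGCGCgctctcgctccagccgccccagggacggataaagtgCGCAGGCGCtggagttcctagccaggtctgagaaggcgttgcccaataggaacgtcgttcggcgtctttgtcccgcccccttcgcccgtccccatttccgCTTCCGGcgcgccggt
Atp5g3: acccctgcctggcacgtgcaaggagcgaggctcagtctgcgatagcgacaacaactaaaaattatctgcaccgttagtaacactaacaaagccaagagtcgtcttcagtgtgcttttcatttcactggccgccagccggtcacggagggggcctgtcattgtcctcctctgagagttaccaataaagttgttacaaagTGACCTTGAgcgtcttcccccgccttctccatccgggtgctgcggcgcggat

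Among tested genes with a matched promoter, the median log2 change was -0.24 in the 23 with NRF1 letters and -0.15 in the 43 without them. It was 0.014 in the 8 with YY1 letters and -0.20 in the 58 without. For ETS letters it was -0.17 in the 16 with them and -0.18 in the 50 without. For ERR letters it was -0.29 in the 2 with them and -0.18 in the 64 without. These medians are a description without a test.

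Values are FPKM, a level that corrects fragment counts for gene length and sequencing depth. The libraries were of similar depth, between about 18100000 and 24400000 reads by the step size of low values, and are called gelADSC 2 and 3 and control 1 and 3 after the table's column names. Hepatocyte markers were high in all libraries: Alb, encoding albumin, had 22020 and 38330 FPKM in gelADSC libraries, against 28130 and 31910 in control libraries. Of 10 tested hepatocyte markers 1 was called higher (Serpina1c) and 0 lower. Among markers of other cells, called higher and called lower were 0 and 2 of 5 for bile duct (Sox9, Spp1), 0 and 1 of 7 for macrophages (Cd68), 2 and 1 of 6 for endothelium (Stab2 and Kdr higher, Lyve1 lower), 1 and 0 of 8 for stellate cells and fibroblasts (Lrat), and 0 and 0 of 5 for neutrophils and monocytes. For adipose tissue the counts were 0 and 1 of 2 (Fabp4), for brown fat 0 and 1 of 1 (Cidea), for red cells 1 and 0 of 1 (Alas2), and for muscle 0 and 0 of 1. All 6 T and B cell markers lay under the level tested, as did the adipose markers Adipoq, Plin1 and Lep. Of all tested genes 6.92% were called higher and 17.5% lower. Lists with 1 or 2 tested markers rest on those genes alone. Cidea had 0.0704 and 0.0853 FPKM in gelADSC libraries, against 1.55 and 3.27 in control libraries. It thus reached the tested level only through the control group, and its call says little about brown fat. The muscle markers Myh1, Myh4 and Myh6 and the brown fat marker Ucp1 were listed at 0 in all libraries. In bulk liver, fewer cells of a type and less RNA per cell cannot be told apart, and the part of cell mixture in the results below was not tested.

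Respiratory chain genes were among the more abundant transcripts of these livers. A gene was tested when its mean over the 4 libraries reached 1 FPKM, which 78 of the 85 passed (35, 4, 9, 13 and 17 genes of complexes I to V) and 11070 of all genes. A mean of at least 100 FPKM was reached by 48 of the 78 (61.5%), against 5.9% of all tested genes. Of library totals, the 85 rows made up 1.92% and 2.26% of summed FPKM in gelADSC libraries, against 2.41% and 2.34% in control libraries. The highest mean levels were 573 FPKM for Atp5b, the catalytic beta subunit of the ATP synthase, 526 FPKM for Uqcrq of complex III, 461 FPKM for Ndufa4 and 439 FPKM for Atp5g3, which encodes a membrane ring subunit of the synthase. Cox4i1 had the highest mean level of complex IV, at 432 FPKM. The order of levels was close to the same in both groups, with a Spearman rho of 0.966 across the 78 genes between gelADSC means and control means. That value is across genes, which are not independent replicates, and it carries no test.

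**Figure D1:**
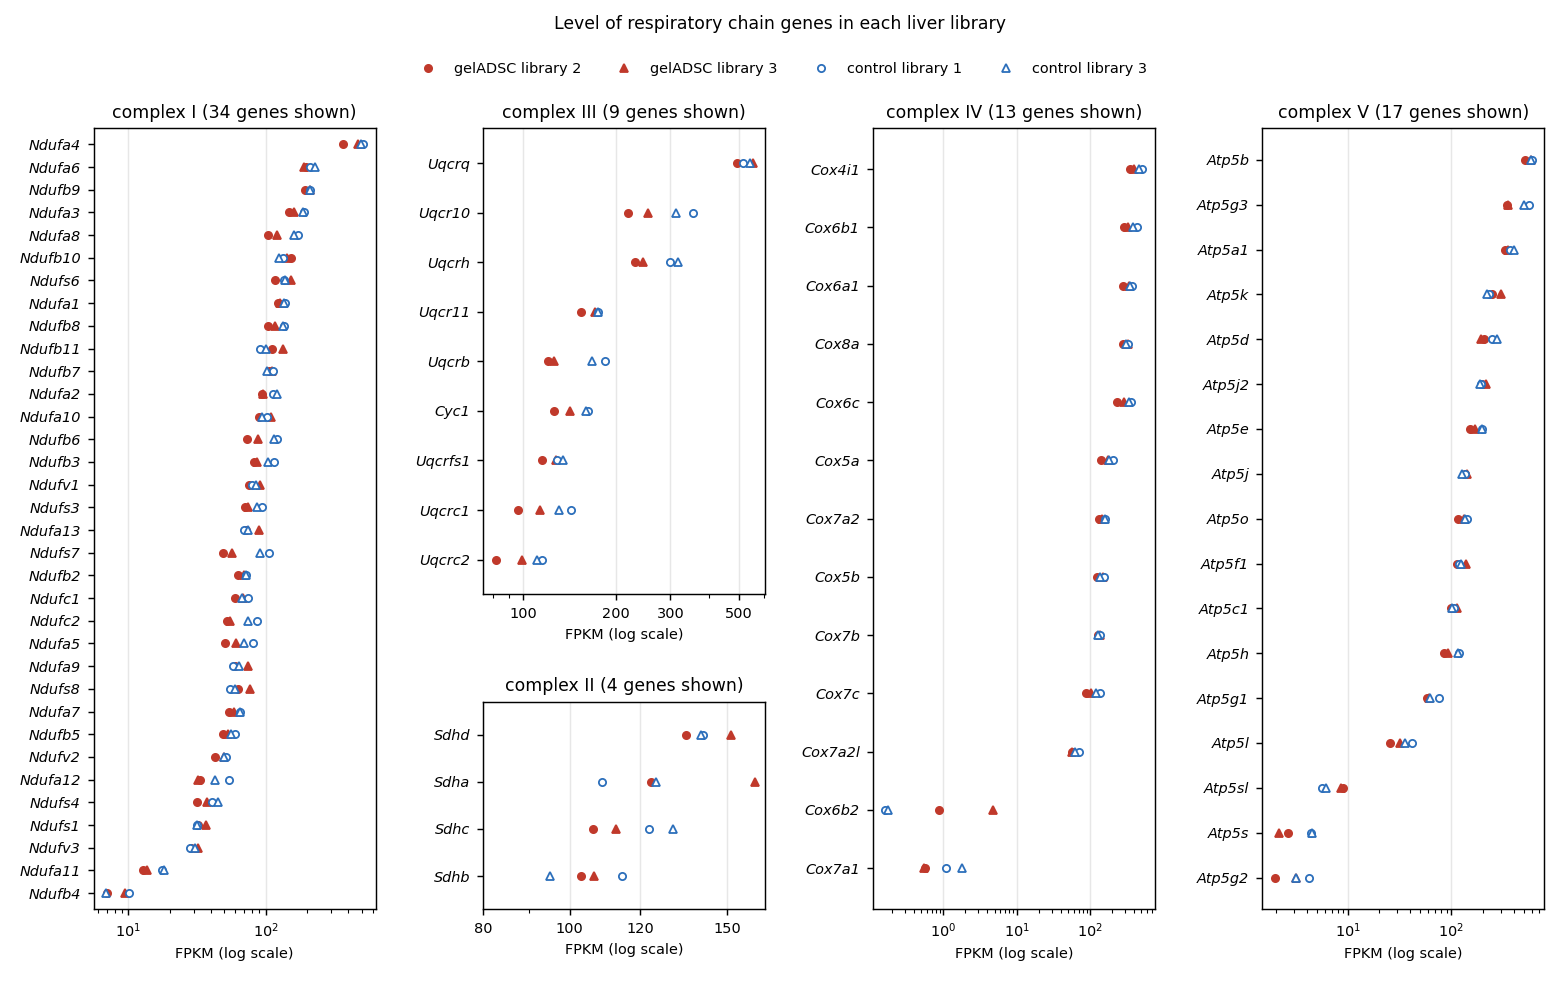
FPKM in each library (log axis) for 77 of the 78 tested genes, 1 panel per complex, genes ordered by mean level, with filled red markers for gelADSC libraries and open blue markers for control libraries. Most genes lie at a mean of at least 20 FPKM, and the markers of the groups lie close together except for a few genes such as Ndufs7 and Cox6b2.

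The 7 rows under that level were Ndufa4l2, Ndufs5, Cox4i2, Cox6a2, Cox7b2, Cox8b and Cox8c. Ndufs5, a complex I subunit that every respiring cell uses, was listed at 0 in all 4 libraries, as were Cox7b2 and Cox8c. A listed 0 for a gene of that kind can be a failed estimate, and Ndufs5 has a pseudogene copy with 99.3% identity in GENCODE M21. The globin genes Hba-a1, Hbb-bs and Hbb-bt were likewise listed at 0. Ndufa4l2, a hypoxia-induced relative of Ndufa4, had 1.06 and 0.566 FPKM in gelADSC libraries, against 1.09 and 0.974 in control libraries. Cox4i2, the lung and hypoxia isoform of Cox4, had 0.226 and 0.205 FPKM in gelADSC libraries, against 0.069 and 0.228 in control libraries. Cox6a2, an isoform of heart and muscle, had 0.249 and 0 FPKM in gelADSC libraries, against 0.0761 and 0.0838 in control libraries. Cox8b, also a muscle isoform, was read only in gelADSC library 2, at 0.113 FPKM. These restricted isoforms were thus at or near 0 throughout, beside general partners at over 100 FPKM.

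Few respiratory chain genes were called different between gelADSC and control livers. By limma on log2(FPKM + 1), with adjusted p under 0.05 over all 11070 genes, 3 of the 78 genes were called (3.85%), against 24.4% of all tested genes. Cox6b2 was called higher in gelADSC livers, beside 6.92% of all genes, and Ndufs7 and Atp5s were called lower, beside 17.5%. No gene of complexes II and III was called. At an unadjusted p under 0.05 the counts were 10 lower and 2 higher (15.4% of the 78, against 39.9% of all genes). A change of at least 2-fold on that scale was seen in 1 of 78 (1.28%), against 14% of all genes.

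In the deposited values the intervals limited the size of the remaining differences, as far as the spread between these libraries goes. They do not cover the choice of scaling, with which the median of the 78 genes moved from -0.20 to 0.09. The share of all tested genes with such intervals was not computed. For 71 of the 78 genes the whole 95% limma interval lay within 2-fold in either direction, with a median half-width of 0.44 on the log2 scale. Among the 71 genes averaging 20 FPKM or more, 68 had a ratio of mean FPKM within 1.5-fold (95.8%), against 49.4% of the 2838 tested genes at that level. The ratio ran between 0.541 for Ndufs7 and 1.28 for Ndufb11 in those 71 genes. With 2 libraries a group, a gene that missed the threshold is not shown to be equal between groups. An exact permutation of 2 against 2 libraries cannot go below a p of 1 in 3, so no single-gene permutation test was made.

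The direction of the set as a whole depended on how libraries were scaled. In the deposited values the median log2 change of the 78 genes was -0.20, beside -0.25 for all tested genes, so it was 0.05 above the median of all genes. With libraries rescaled by median ratios the median of all genes moved to -0.001 and that of the 78 genes to 0.09. In the deposited values 57 genes had a negative and 21 a positive log2 change, and with median ratio scaling 29 were negative and 49 positive. The groups did not overlap in 57 of 78 genes, against 69.8% of all tested genes, 49 with both gelADSC libraries below (62.8%, against 50.5% of all tested genes) and 8 with both above (10.3%, against 19.2%). Summed FPKM of the set was 9929 and 11219 in gelADSC libraries, against 12369 and 11971 in control libraries, a ratio of mean sums of 0.869. By complex that ratio was 0.882 for complex I, 1.02 for complex II, 0.84 for complex III, 0.825 for complex IV and 0.888 for complex V.

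**Figure D2:**
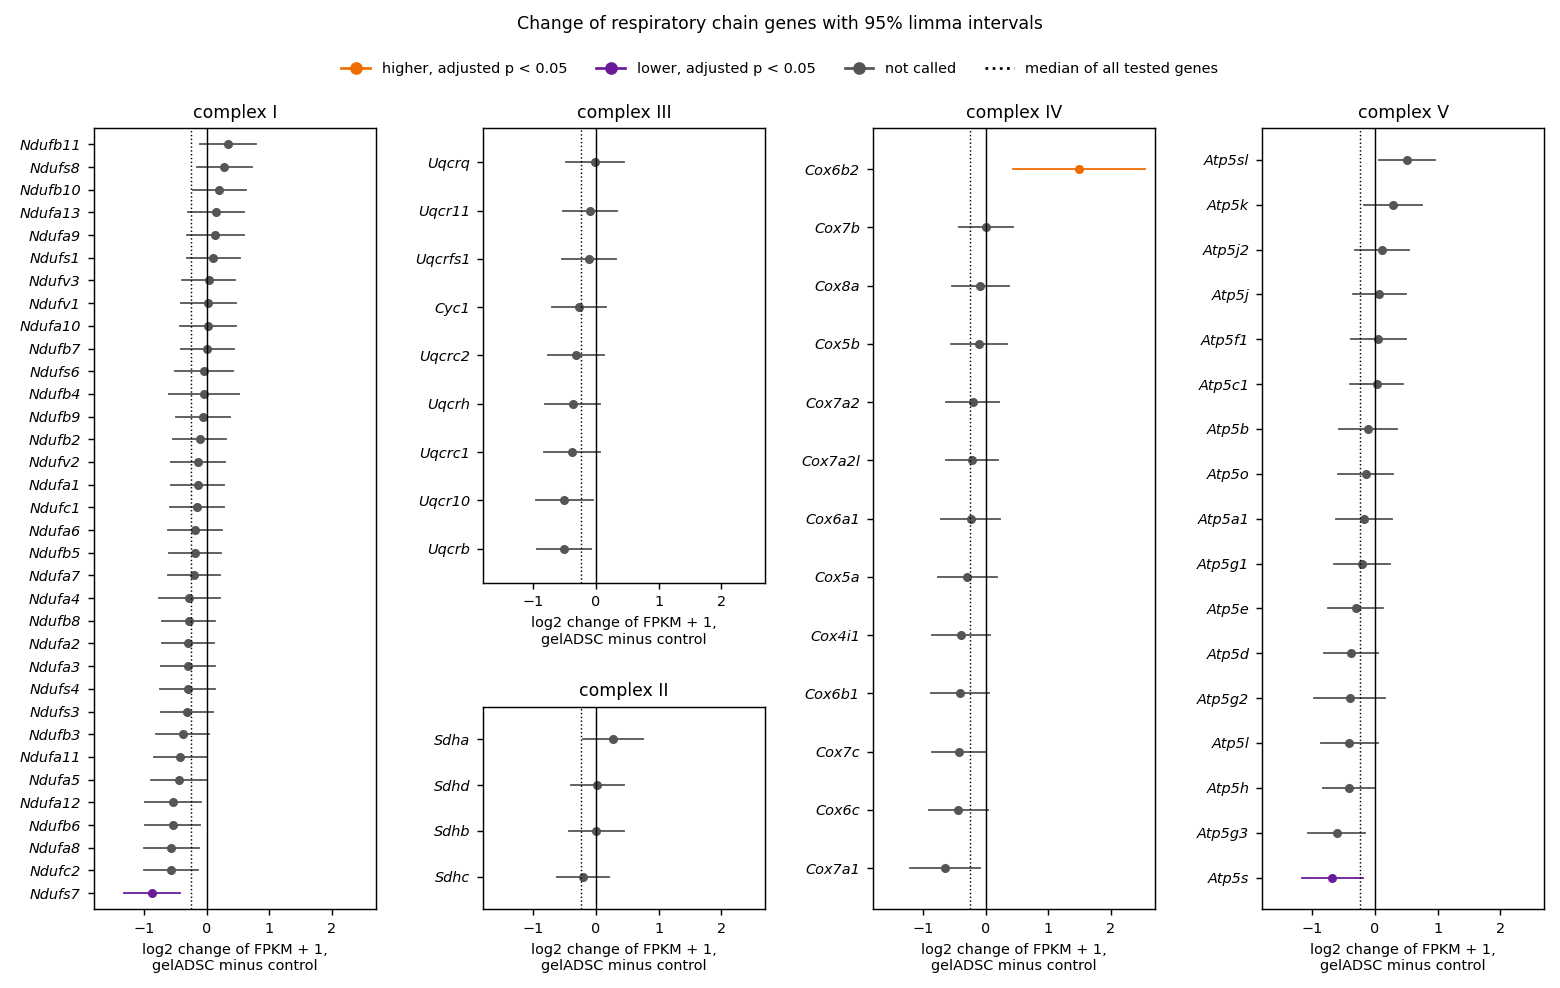
Log2 change of FPKM + 1, gelADSC minus control, for 77 of the 78 tested genes by complex, with 95% limma intervals as bars, the solid line at 0 and the dotted line at the median of all tested genes (-0.25). Most bars cross both lines, and the called genes are Cox6b2 (orange, higher) and Ndufs7 and Atp5s (purple, lower).

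Complex I carried the lowest log2 change of the set, in its quinone-binding core, beside a median of -0.18 over its 35 tested genes (0.11 with median ratio scaling). Ndufs7, the subunit that holds the last iron-sulfur cluster before ubiquinone, had 48.8 and 57 FPKM in gelADSC libraries, against 105 and 90.3 in control libraries. Both gelADSC libraries lay well below both controls. Its log2 change was -0.87 (SE 0.19), with a limma adjusted p of 0.0152. The call held with median ratio scaling, at a log2 change of -0.59 and a limma adjusted p of 0.0434. It was lost without control library 1 (limma adjusted p = 0.112) and without gelADSC library 2 (0.0717), while the log2 change in both was -0.76. Read depth was not thin here, at roughly 2000 reads in each gelADSC library and 3600 and 2800 in the controls. GENCODE M21 holds no near-identical copy of Ndufs7 and no gene overlapping it.

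None of its neighbours in the same core was called. Ndufs8, which carries the iron-sulfur clusters next to it in the electron path, had 63 and 77 FPKM in gelADSC libraries, against 54.6 and 59.5 in control libraries. There both gelADSC libraries lay above both controls, at a log2 change of 0.29 (SE 0.19), and the limma adjusted p was 0.302. The FPKM ratio of Ndufs7 to Ndufs8 was 0.773 and 0.74 in gelADSC libraries, against 1.93 and 1.52 in control libraries. That ratio uses values of a single library each and does not depend on how libraries are scaled, and the pair was chosen after its values were seen. Ndufs3 had 70.3 and 75 FPKM in gelADSC libraries, against 94.1 and 87.2 in control libraries, with a log2 change of -0.32 (limma adjusted p = 0.231). Relative to the median of the complex in the same library, Ndufs7 averaged 0.669 in gelADSC and 1.09 in control libraries.

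No subunit of the NADH-oxidizing core was called. Ndufv1, the subunit that binds NADH and flavin, had 76.2 and 91.1 FPKM in gelADSC libraries, against 79 and 84.7 in control libraries, at a log2 change of 0.03 and a 95% interval of -0.41 to 0.47. Ndufv2 had 42.7 and 49.7 FPKM in gelADSC libraries, against 51.7 and 49.6 in control libraries, and there the groups overlapped. Ndufs1, the largest subunit, had 32 and 36.9 FPKM in gelADSC libraries, against 31.9 and 31.9 in control libraries, with gelADSC slightly above. None of these passed the limma threshold, with adjusted p-values of 0.931, 0.624 and 0.699.

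Among the 28 tested accessory genes of complex I, 0 were called, against 24.4% of all tested genes. Their median log2 change was -0.18 in the deposited values and 0.11 with median ratio scaling. Ndufa4 stands among them by its symbol, although the protein is now placed in complex IV. It had 367 and 471 FPKM in gelADSC libraries, against 512 and 493 in control libraries, the highest level in this group. The lowest log2 changes belonged to Ndufc2 and Ndufa8. Ndufc2, a small subunit of the membrane arm, had 52.6 and 54.7 FPKM in gelADSC libraries, against 87 and 74 in control libraries. Ndufa8, which enters the intermembrane space through the disulfide relay and whose NRF1 letters are printed above, had 104 and 122 FPKM in gelADSC libraries, against 172 and 161 in control libraries. Both gelADSC libraries lay below both controls in each. The log2 change of Ndufc2 was -0.57 (limma adjusted p = 0.0567), and it passed only when genes under a mean of 5 FPKM were left out (0.0441). For Ndufa8 the log2 change was -0.56 (limma adjusted p = 0.0641). With median ratio scaling the log2 changes were -0.28 for Ndufc2 and -0.27 for Ndufa8 (limma adjusted p = 0.163 and 0.237). At the other end, Ndufb11, an X-linked membrane subunit, had 111 and 133 FPKM in gelADSC libraries, against 91.4 and 100 in control libraries. Its log2 change of 0.35 did not pass (limma adjusted p = 0.217), and it overlaps Rbm10 on the other strand. Ndufb4, the lowest tested level in complex I, had 6.95 and 9.4 FPKM in gelADSC libraries, against 10.1 and 6.93 in control libraries, and it has a pseudogene copy of 100% identity, so its level is uncertain.

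Complex II, which is also an enzyme of the tricarboxylic acid cycle, had no called gene. Its 4 subunits had a median log2 change of 0.015 in the deposited values and 0.31 with median ratio scaling. Sdha, the flavin subunit that oxidizes succinate, had 123 and 161 FPKM in gelADSC libraries, against 109 and 125 in control libraries. The high value came from gelADSC library 3, and the groups overlapped, at a log2 change of 0.27 (SE 0.21, limma adjusted p = 0.362). Sdhb, the iron-sulfur subunit, had 103 and 107 FPKM in gelADSC libraries, against 114 and 95 in control libraries. Sdhc, a membrane anchor, had 106 and 113 FPKM in gelADSC libraries, against 123 and 130.5 in control libraries, with both gelADSC libraries below the controls. Sdhd, the other anchor, had 135 and 152 FPKM in gelADSC libraries, against 141 and 140.4 in control libraries, with one gelADSC library on each side of the controls. The limma adjusted p-values of Sdhb, Sdhc and Sdhd were 0.98, 0.426 and 0.941, and each 95% interval lay within 2-fold.

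Complex III had the lowest median log2 change of the complexes, and none of its 9 genes was called, against 24.4% of all tested genes. The median was -0.32, below that of all genes (-0.25), and with median ratio scaling it was -0.03, beside -0.001 for all genes. All 9 log2 changes were negative in the deposited values, and both gelADSC libraries lay below both controls in 8 of 9 (88.9%, against 50.5% of all tested genes). Uqcrb, a small subunit next to the quinone site, had 121 and 126 FPKM in gelADSC libraries, against 185 and 168 in control libraries. Uqcr10, a small subunit beside cytochrome c1, had 218 and 253 FPKM in gelADSC libraries, against 355 and 314 in control libraries. Their log2 changes were -0.51 (limma adjusted p = 0.0773) and -0.50 (limma adjusted p = 0.0983), the lowest in the complex. Uqcrb has 3 pseudogene copies, the closest with 98.2% identity, and its level is uncertain to that extent.

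The redox subunits and core proteins of complex III showed smaller gaps. Cyc1, cytochrome c1 itself, had 126 and 142 FPKM in gelADSC libraries, against 163 and 160.3 in control libraries, at a log2 change of -0.27 (limma adjusted p = 0.316). Uqcrfs1, the Rieske iron-sulfur protein, had 115 and 128 FPKM in gelADSC libraries, against 129 and 135 in control libraries, with the groups only just apart. Uqcrc1, a core protein, had 96.4 and 114 FPKM in gelADSC libraries, against 143 and 131 in control libraries, and its log2 change was -0.39 (limma adjusted p = 0.171). Uqcrc2, the other core protein, had 81.8 and 99.6 FPKM in gelADSC libraries, against 115 and 111 in control libraries, at -0.32 (limma adjusted p = 0.247). The most abundant member, Uqcrq, had 492 and 553 FPKM in gelADSC libraries, against 514 and 543 in control libraries, and its log2 change of -0.02 came with a 95% interval of -0.48 to 0.45. Uqcr11, a small subunit, had 154 and 172 FPKM in gelADSC libraries, against 175 and 174 in control libraries, at a log2 change of -0.10 (limma adjusted p = 0.717).

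Complex IV has isoforms used in most tissues and isoforms restricted to a few, and its 13 tested genes had a median log2 change of -0.24 (0.055 with median ratio scaling). The 10 general subunits had levels between 89 and 515 FPKM in single libraries, and none was called, against 24.4% of all tested genes. Their median log2 change was -0.26 in the deposited values and 0.03 with median ratio scaling. Cox4i1, the regulatory subunit of the general form, had 350.4 and 397 FPKM in gelADSC libraries, against 515 and 467 in control libraries. Both gelADSC libraries were lower, at a log2 change of -0.39 (SE 0.20, limma adjusted p = 0.181). Cox6c had 232 and 293 FPKM in gelADSC libraries, against 359 and 346 in control libraries, with a log2 change of -0.43 and 2 pseudogene copies. Cox7c had 89 and 102 FPKM in gelADSC libraries, against 136 and 121 in control libraries, at -0.42. Neither passed the limma threshold (adjusted p = 0.156 and 0.135). Cox5a had 141 and 177 FPKM in gelADSC libraries, against 205 and 182 in control libraries. Cox5b had 126 and 150.1 FPKM in gelADSC libraries, against 156 and 139.6 in control libraries. Both are matrix-side subunits, and their limma adjusted p-values were 0.325 and 0.73. Cox6a1, whose printed promoter holds NRF1 and ETS letters, had 280.4 and 339.8 FPKM in gelADSC libraries, against 381 and 348 in control libraries (log2 change -0.24, limma adjusted p = 0.417). Cox7b had 129 and 139 FPKM in gelADSC libraries, against 139 and 128 in control libraries, with the groups overlapping. Cox7a2l, a supercomplex assembly factor rather than a core subunit, had 57.7 and 57.7 FPKM in gelADSC libraries, against 71.3 and 63.1 in control libraries, at a log2 change of -0.21.

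Cox6b2, the testis form of subunit 6b, was the only gene of the set called higher. It had 0.864 and 4.83 FPKM in gelADSC libraries, against 0.163 and 0.179 in control libraries. All values are low, and the gelADSC libraries differed from each other more than gelADSC library 2 differed from the controls in FPKM. In reads this was roughly 23 and 110 in gelADSC libraries, against 3 and 3 in control libraries. The log2 change was 1.49 (SE 0.46, limma adjusted p = 0.0462), and it depends on the pseudocount, at 0.55 with a pseudocount of 5 (limma adjusted p = 0.0899). The call was also lost with no filter on low values, with median ratio scaling and quantile normalization, and without control library 1 (limma adjusted p = 0.263) or control library 3 (0.182). Without gelADSC library 3 its mean fell under 1 FPKM and it was not tested. Its general partner Cox6b1 had 293 and 327 FPKM in gelADSC libraries, against 441 and 384 in control libraries, so Cox6b2 stayed a minor form at ratios of 0.00295 and 0.0147 in gelADSC libraries, against 0.000369 and 0.000467 in control libraries.

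The muscle isoform Cox7a1 had 0.56 and 0.542 FPKM in gelADSC libraries, against 1.1 and 1.81 in control libraries, near the level of 1 FPKM. Both gelADSC libraries were lower, at a log2 change of -0.65 (limma adjusted p = 0.0861), on roughly 7 and 5 reads, against 12 and 18. The general partner Cox7a2 had 133 and 147 FPKM in gelADSC libraries, against 163 and 159 in control libraries. Cox8a, the general form beside the restricted Cox8b and Cox8c, had 282 and 328 FPKM in gelADSC libraries, against 333 and 313 in control libraries, with the groups overlapping.

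In complex V no subunit of the catalytic head was called. The lowest log2 changes were those of Atp5s, a gene outside the enzyme, and of Atp5g3, a gene of the c ring. Atp5a1, the alpha subunit, had 327 and 351 FPKM in gelADSC libraries, against 366 and 401 in control libraries. Atp5b, the beta subunit, had 518 and 585 FPKM in gelADSC libraries, against 596 and 592 in control libraries. Atp5c1, the gamma subunit of the rotor, had 100 and 113 FPKM in gelADSC libraries, against 106 and 102 in control libraries. Their log2 changes were -0.18, -0.11 and 0.03, and none passed (limma adjusted p = 0.534, 0.724 and 0.923). The median log2 change of the complex was -0.18 in the deposited values and 0.12 with median ratio scaling.

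The c ring, the rotor in the membrane, is encoded by Atp5g1, Atp5g2 and Atp5g3, which give the same mature protein. Atp5g3, the main source of that subunit in these livers, had 343 and 352 FPKM in gelADSC libraries, against 558 and 504 in control libraries. Both gelADSC libraries were lower, at a log2 change of -0.61 (SE 0.20), and the limma adjusted p of 0.0554 just missed the threshold. It passed only when genes under a mean of 5 FPKM were left out (limma adjusted p = 0.0446). With median ratio scaling its log2 change was -0.32 (limma adjusted p = 0.234). Atp5g1 had 57.6 and 60.5 FPKM in gelADSC libraries, against 75.6 and 61.9 in control libraries, with a log2 change of -0.21 (limma adjusted p = 0.446). Atp5g2 had 1.96 and 3.15 FPKM in gelADSC libraries, against 4.19 and 3.16 in control libraries. Near-identical copies make that low level uncertain, and Atp5g1 has a pseudogene copy of 99.8% identity. The ratio of Atp5g3 to Atp5g1 was 5.96 and 5.81 in gelADSC libraries, against 7.38 and 8.13 in control libraries, a pair chosen after its values were seen.

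The stalk and membrane subunits matched by symbol were not called either. Atp5h, a part of the peripheral stalk, had 84.2 and 92 FPKM in gelADSC libraries, against 119 and 116 in control libraries. Both gelADSC libraries were lower, and its log2 change was -0.42 (limma adjusted p = 0.128). Atp5k, subunit e, which sits where ATP synthase dimers meet, had 249 and 305 FPKM in gelADSC libraries, against 230.4 and 220.1 in control libraries. Both gelADSC libraries were above both controls, at a log2 change of 0.29, and the limma adjusted p was 0.315. The 3 genes of the membrane subunits e, f and g had log2 changes of 0.29 (Atp5k), 0.11 (Atp5j2) and -0.41 (Atp5l), and none was called.

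The remaining called gene, Atp5s, and its relative by name, Atp5sl, are no subunits of the synthase: they are now named Dmac2l and Dmac2, and Dmac2 takes part in complex I assembly. Atp5s had 2.65 and 2.17 FPKM in gelADSC libraries, against 4.39 and 4.5 in control libraries. Both gelADSC libraries were lower, at a log2 change of -0.68 (SE 0.21, limma adjusted p = 0.0472). The call was lost with each of the 4 libraries left out in turn (limma adjusted p between 0.0995 and 0.255). It was also lost with median ratio scaling (0.126), quantile normalization, TPM conversion, a pseudocount of 5 and no filter on low values. Atp5sl had 9.02 and 8.58 FPKM in gelADSC libraries, against 5.62 and 6.1 in control libraries, with both gelADSC libraries above both controls. Its log2 change of 0.51 missed the threshold (limma adjusted p = 0.0851) and passed with median ratio scaling (0.04) and quantile normalization (0.0434). Without these 2 symbols, 0 of the ATP synthase genes matched by symbol were called, against 24.4% of all tested genes.

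Other large assemblies were set beside the respiratory chain. Of 79 tested cytosolic ribosomal protein genes 0 were called higher and 66 lower (83.5%, against 17.5% of all tested genes called lower), with a median log2 change of -0.92 in the deposited values and -0.65 with median ratio scaling. Of 77 mitochondrial ribosomal protein genes 0 were higher and 11 lower (14.3%, below that share), at a median of -0.38. Of 37 proteasome subunit genes 0 were higher and 6 lower (16.2%, also below it), at a median of -0.49. The respiratory chain genes, at 3.85% called and a median of -0.20, lay nearest to the median of all genes among these 4 groups. With median ratio scaling the medians were 0.09 for the respiratory chain, -0.10 for mitochondrial ribosomal proteins and -0.21 for proteasome subunits. No test was made between these groups, and none between the complexes.

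**Figure D3:**
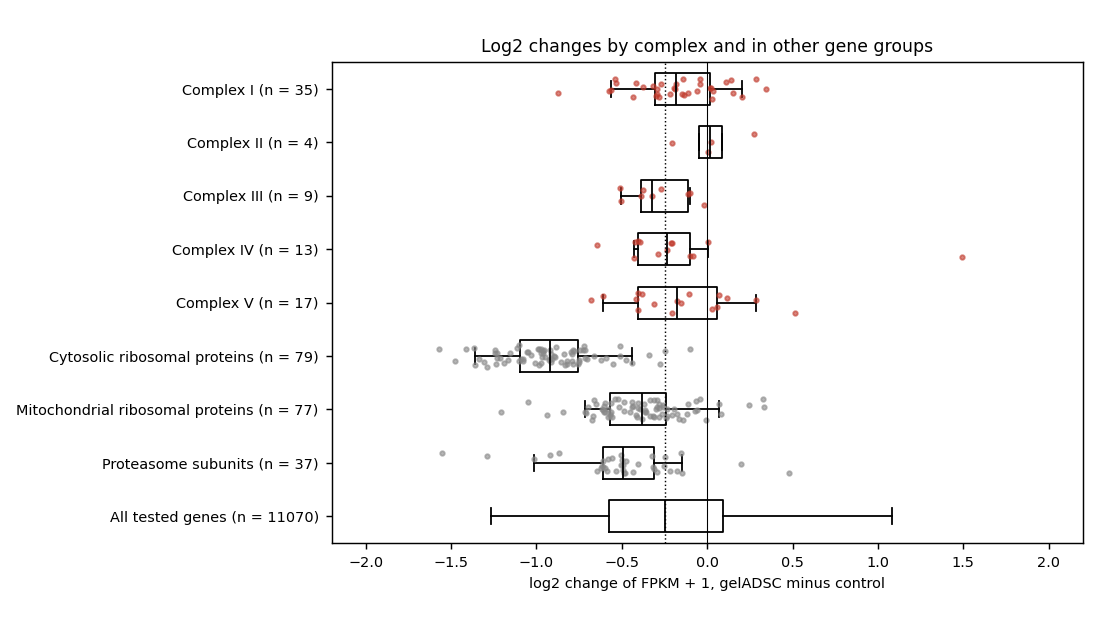
Log2 change of FPKM + 1, gelADSC minus control, for each complex, 3 other gene groups and all tested genes, with points for genes, boxes for quartiles, whiskers at the 5th and 95th percentiles and the dotted line at the median of all tested genes. The complexes sit around that line, with medians between -0.32 and 0.015, while cytosolic ribosomal protein genes sit around -0.92; with median ratio scaling the medians of complexes I, IV and V turn positive.

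Highly expressed genes and short genes as a whole were often called. Among tested genes averaging 100 FPKM or more, 45.5% of 653 were called, and 0 of the 48 respiratory chain genes in that range. Between 50 and 100 FPKM, 47% of 632 genes were called, and 1 of the 17 respiratory chain genes. Between 1 and 5 FPKM it was the other way, with 14.1% of 4024 genes called and 2 of 4 respiratory chain genes (Cox6b2 and Atp5s). Among genes with under 1000 bases of exon, 31.8% of 412 were called, and 0 of 17 respiratory chain genes. The median exon length was 1737 bases in the set and 4264 bases in all tested genes. Near-identical copies were found for 21 of 84 genes searched, and the median log2 change was -0.21 in the 20 tested genes with a copy and -0.20 in the 57 without. Among genes named above, Ndufs3, Ndufb11, Uqcr11, Cox5b, Cox7a2l, Cox7b, Cox7c, Atp5c1, Atp5h, Atp5k and Atp5l also have such a copy. Their levels are uncertain to that extent.

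Electron carriers and ubiquinone synthesis genes included calls in both directions. Of 21 tested electron carriers, ubiquinone synthesis genes and subunits outside the symbol rule, 1 was called higher and 7 lower (38.1%), against 24.4% of all tested genes. Adck3 and Adck4, the paralogous kinase-like proteins of ubiquinone synthesis now named Coq8a and Coq8b, went opposite ways. Adck3 had 40.8 and 42 FPKM in gelADSC libraries, against 9.89 and 11.9 in control libraries, a log2 change of 1.84 (SE 0.19, limma adjusted p = 0.000575). Adck4 had 12.4 and 11.6 FPKM in gelADSC libraries, against 54.2 and 46.2 in control libraries, a log2 change of -1.97 (SE 0.19, limma adjusted p = 0.000439). Both calls held in every alternative run. The ratio of Adck3 to Adck4 was 3.29 and 3.62 in gelADSC libraries, against 0.182 and 0.258 in control libraries. Cycs, encoding the cytochrome c that links complexes III and IV, had 9.77 and 12.8 FPKM in gelADSC libraries, against 29.9 and 21.3 in control libraries. It fell by 1.11 on the log2 scale (limma adjusted p = 0.0119), a call lost without control library 1 and with no filter on low values.

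Small ATP synthase subunits whose symbols the rule does not match were among those calls, and they were named after their values were seen. Usmg5, a membrane subunit of the synthase dimer, had 105 and 102 FPKM in gelADSC libraries, against 189 and 187 in control libraries. Its log2 change was -0.86 (limma adjusted p = 0.0126), a call lost with median ratio scaling (0.0769) and without control library 1. 2010107E04Rik, a small proteolipid of the synthase, had 107 and 118 FPKM in gelADSC libraries, against 184 and 170.1 in control libraries, with a log2 change of -0.65 (limma adjusted p = 0.0375). Its call was lost in most alternatives, median ratio scaling among them (0.137). Ndufab1, the acyl carrier protein in complex I, had a log2 change of -0.49 (limma adjusted p = 0.0962). Subunits encoded in mitochondrial DNA were not analysed here.

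Few assembly factors were called. Of 18 tested factors of complex I 0 were called, against 24.4% of all tested genes. Of 34 factors of complexes II to V 0 were called higher and 2 lower (5.88%). The 18 include Atp5sl, which the symbol rule also placed in complex V. Ttc19, a factor of complex III, had 3.35 and 3.47 FPKM in gelADSC libraries, against 10.3 and 8.94 in control libraries, at a log2 change of -1.26 (limma adjusted p = 0.00366), and the call held in every alternative run. Coa3, a factor of complex IV, had 44.1 and 40.6 FPKM in gelADSC libraries, against 93.7 and 70.1 in control libraries, at a log2 change of -0.92 (limma adjusted p = 0.0158), lost with median ratio scaling (0.0555), quantile normalization and no filter on low values, and without control library 1. Of 29 tested genes of mitochondrial protein import 0 were called higher and 10 lower (34.5%), against 17.5% of all tested genes called lower. Timm17a, part of the inner membrane translocase, had 20.5 and 20.1 FPKM in gelADSC libraries, against 47.8 and 33.8 in control libraries. Samm50, the outer membrane barrel assembly protein, had 51 and 54 FPKM in gelADSC libraries, against 109 and 94.8 in control libraries. They had the largest falls of that list, and both calls were lost without control library 1, as were all 10 of the list. That of Timm17a was also lost with quantile normalization and with no filter on low values.

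Of 24 tested genes of the tricarboxylic acid cycle and pyruvate dehydrogenase, 3 were called higher and 3 lower (25%), close to the 24.4% of all tested genes. Idh2, the mitochondrial NADP-dependent isocitrate dehydrogenase, had 91.7 and 110.5 FPKM in gelADSC libraries, against 41.6 and 37.5 in control libraries, a log2 change of 1.33 (limma adjusted p = 0.00254). Pdk4, a kinase that switches pyruvate dehydrogenase off, had 14.3 and 8.64 FPKM in gelADSC libraries, against 53.6 and 58 in control libraries, a log2 change of -2.22 (limma adjusted p = 0.00074). Pdp2, a phosphatase that switches it on, had 11.6 and 12.2 FPKM in gelADSC libraries, against 4.23 and 5 in control libraries, a log2 change of 1.20 (limma adjusted p = 0.00436). These 3 calls held in every alternative run. The other called genes were Pdk2, higher, and Pdha1 and Dlat, lower. Pdk2, a kinase of the same family as Pdk4, went the opposite way to Pdk4. It had 27.3 and 23.9 FPKM in gelADSC libraries, against 10.6 and 13.3 in control libraries. Its log2 change was 1.04 (limma adjusted p = 0.00856). The call held with median ratio scaling (0.0299) and was lost without control library 1. Pdha1, the catalytic alpha subunit of pyruvate dehydrogenase, had 22.9 and 32 FPKM in gelADSC libraries, against 56 and 57.9 in control libraries. Its call was lost with median ratio scaling (0.0564) and quantile normalization, and without control library 1, control library 3 or gelADSC library 2. The call of Dlat was lost with median ratio scaling (limma adjusted p = 0.0832), quantile normalization and no filter on low values, and with any library left out.

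Of 24 tested regulators of mitochondrial genes, 2 were called higher and 3 lower (20.8%), against 24.4% of all tested genes. Myc, a driver of growth, had 3.48 and 4.34 FPKM in gelADSC libraries, against 19.9 and 7.96 in control libraries. It was called lower (limma adjusted p = 0.021), and the call was lost with median ratio scaling (0.0736) and without control library 1. Hif1a, the oxygen-regulated subunit of hypoxia-inducible factor, had 9.88 and 8.57 FPKM in gelADSC libraries, against 29.5 and 21.1 in control libraries, a log2 change of -1.35 (limma adjusted p = 0.00418), lost without control library 1. Polg2, the accessory subunit of the mitochondrial DNA polymerase, had 2.94 and 2.77 FPKM in gelADSC libraries, against 1.43 and 1.12 in control libraries. Sirt3, a mitochondrial deacylase, had 34.4 and 32.5 FPKM in gelADSC libraries, against 16.1 and 23.4 in control libraries. Both were called higher (limma adjusted p = 0.0363 and 0.0386), and both calls were lost with no filter on low values and without control library 1, gelADSC library 2 or gelADSC library 3. That of Polg2 was also lost without control library 3, and that of Sirt3 with median ratio scaling (0.0665) and quantile normalization. The regulators tied to the motifs above were named after their values were seen. Esrra, the receptor of the ERR letters, had 9.67 and 9.63 FPKM in gelADSC libraries, against 16.5 and 17.6 in control libraries. It was called lower (limma adjusted p = 0.0217), a call lost with median ratio scaling (0.0918) and with any library left out. Nrf1 had 2.01 and 2.22 FPKM in gelADSC libraries, against 2.5 and 1.94 in control libraries, at a limma adjusted p of 0.901. Gabpa had 9.01 and 10.02 FPKM in gelADSC libraries, against 7.86 and 6.48 in control libraries, not called (limma adjusted p = 0.209) but called higher with median ratio scaling (0.0276). Yy1 had 14.1 and 14.8 FPKM in gelADSC libraries, against 20.7 and 18.8 in control libraries. Ppargc1a, the coactivator of mitochondrial biogenesis, had 1.25 and 1.42 FPKM in gelADSC libraries, against 0.858 and 2.52 in control libraries. Neither was called (limma adjusted p = 0.13 and 0.783).

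Within the gelADSC group most respiratory chain genes differed in the same direction between libraries. Of the 78 genes, 70 were higher in gelADSC library 3 than in gelADSC library 2, by a median of 0.17 on the log2 scale, beside 7392 of all 11070 tested genes and a median of 0.105 for them. In the control group 25 of 78 were higher in control library 3 than in control library 1, at a median of -0.05, beside 2559 of 11070 and a median of -0.205 for all genes. The spread between the gelADSC libraries was thus close in size to the median difference between the groups (-0.20). Without gelADSC library 2 the median log2 change of the set was -0.12, and without gelADSC library 3 it was -0.25.

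**Figure D4:**
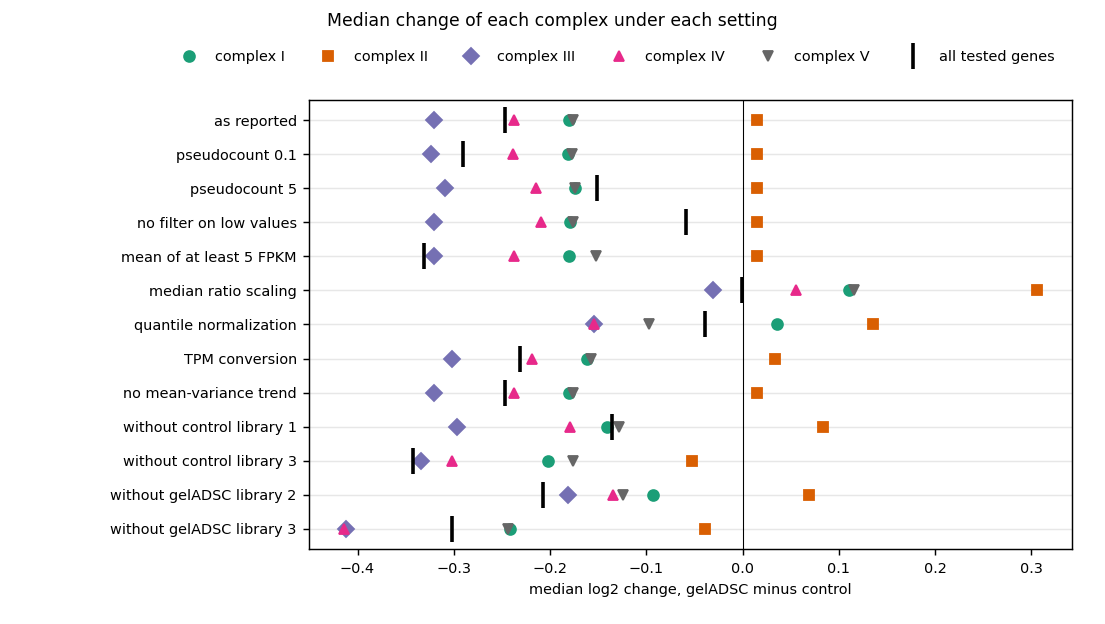
Median log2 change, gelADSC minus control, of each complex (coloured symbols) and of all tested genes (black bar) under each setting. Complex III has the lowest median of the complexes or lies level with complex IV, complex II has the highest, and median ratio scaling moves all of them upward, with complexes I, IV and V above 0 there.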

How the data were processed

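Mouse liver RNA was measured by RNA-seq in 4 libraries. Libraries were stranded mRNA libraries (TruSeq) from RNeasy column RNA, per the labels' protocols. Per the submitters' processing notes, the authors used Trimmomatic 0.38, TopHat2 2.1.1 and Cufflinks 2.2.1, and the build named there is hg19, which cannot be the reference of a table with mouse symbols. For step order, annotation and strand setting the sources used here give nothing. The deposited values, 1 for each gene in each library, were taken as FPKM from the tools named and from the values, which step as length-scaled counts do. Depth was inferred from those steps. Column numbers (1 and 3, 2 and 3) differ from the sample titles, so they name libraries and pair none.

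Genes averaging 1 FPKM or more were tested on log2(FPKM + 1), unscaled, with limma 3.58.1 (R 4.3.3), a mean-variance trend, two-sided tests and Benjamini-Hochberg adjustment over 11070 genes at 0.05. Fold changes on this scale understate those of low genes. The fit was tested on simulated data. It recovered 64 of 100 genes given a log2 change of 1 and 98 of 100 given a log2 change of 2, with 17 false calls. Changes were given to 200 of 11070 genes there, while 24.4% of all tested genes were called between the livers. Whether recovery and false calls carry over to that larger share was not tested. Median ratio scaling divided each library by its median ratio to the geometric mean of the libraries, over tested genes above 0 in all of them. Other alternatives were pseudocounts of 0.1 and 5, no filter, a mean of at least 5 FPKM, quantile normalization, TPM conversion, no trend, and each library left out.

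The members, lists and promoter motifs were chosen with earlier results of these data known. Named members are the core subunits, isoforms with restricted use and their partners, the 3 lowest and 2 highest log2 changes and the highest and lowest levels of each complex, and every member called higher. In other lists the 2 largest called changes in each direction are named. A few genes that are in the fits and counts are not reported here by name. Of 267 list symbols 1 was not matched. Exon lengths, overlaps and transcripts are from GENCODE M21. Near-identical copies were searched with BLAST 2.17.0 (at least 95% identity over at least 150 bases). Of the genes in the set, 26 overlap a gene on the other strand.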

Additional observations from a re-analysis of the deposited data

How the results depend on the processing

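With median ratio scaling the median log2 change was 0.09 for all members, 0.111 for complex I, 0.306 for complex II, -0.031 for complex III, 0.055 for complex IV and 0.116 for complex V, 1 member was called lower, 0 in complex V, and 948 of all genes were lower. With quantile normalization these were -0.073, 0.036, 0.135, -0.154, -0.154, -0.097, 1, 0 and 1000. With no filter on low values 0 members were called higher, 1 lower and 0 lower in complex V, with 730 genes lower in all. With a pseudocount of 5 the member counts were 0, 1 and 0, and TPM conversion gave 1 lower and 0 in complex V. With a mean of at least 5 FPKM, 0 were higher and 2 of complex I lower. With each library left out in turn, members called higher ran from 0 to 1, lower from 0 to 1, in complex I from 0 to 1 and in complex V from 0 to 0. All genes called higher ran from 303 (without control library 1) to 775, and lower from 331 (without control library 1) to 1708. The medians ran from -0.248 to -0.123 for all members, -0.242 to -0.093 for complex I, -0.053 to 0.083 for complex II, -0.412 to -0.181 for complex III, -0.414 to -0.135 for complex IV and -0.244 to -0.124 for complex V. Where a library was left out, the lone library of its group was assumed to vary like the other group. The cause of these shifts was not tested. A pseudocount of 0.1 and a fit without the mean-variance trend kept the counts of members called, with 818 and 767 of all genes higher and 2032 and 1835 lower. No paired analysis was possible because the columns of the groups share only the number 3, and the titles number both groups 1 and 2. Depth limits Cox6b2, Cox7a1 and the restricted isoforms, which rest on few reads, and 2 libraries a group limit every test.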

Other observations

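Among uncoupling proteins, mitochondrial carriers and antioxidant enzymes, 1 of 17 tested genes was called higher and 7 lower (47.1%, against 24.4% of all tested genes). Cat had 1002 and 853 FPKM in gelADSC libraries, against 376 and 399.8 in control libraries, a log2 change of 1.25 (limma adjusted p = 0.00451). Catalase breaks down hydrogen peroxide in peroxisomes. Prdx5 had 299 and 306 FPKM in gelADSC libraries, against 739 and 588 in control libraries, a log2 change of -1.12 (limma adjusted p = 0.00771). Prdx5 is a peroxiredoxin of mitochondria and peroxisomes. Slc25a3, the phosphate carrier that feeds the ATP synthase, had 144 and 157 FPKM in gelADSC libraries, against 322 and 280.3 in control libraries, a log2 change of -0.99 (limma adjusted p = 0.0091). These 3 calls held with median ratio scaling and were lost without control library 1.

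In glycolysis 1 of 18 tested genes was called higher and 4 lower (27.8%), against 24.4% of all tested genes. Gapdh had 58.8 and 63.1 FPKM in gelADSC libraries, against 184 and 159 in control libraries, a log2 change of -1.48 (limma adjusted p = 0.00142). This call held in every alternative run. Aldoa, the aldolase of muscle and of growing cells, had 58.2 and 43.4 FPKM in gelADSC libraries, against 162 and 109 in control libraries, and it fell by 1.38 on the log2 scale (limma adjusted p = 0.00626), a call lost without control library 1. Hk3 and Pgam1 were also called lower. Both calls were lost with median ratio scaling (limma adjusted p = 0.181 and 0.0999), quantile normalization and no filter on low values. They were also lost without control library 1 or control library 3.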
